A study of Mus musculus with 9 samples.

Results

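The 10 genes described here encode secreted acute-phase and Reg proteins and a transport receptor, all of which the gut epithelium can make. They are the serum amyloid A genes Saa1, Saa2 and Saa3, lipocalin-2 (Lcn2), haptoglobin (Hp), complement C3, the Reg family lectins Reg3b, Reg3g and Reg4, and the polymeric immunoglobulin receptor Pigr. They were chosen by symbol among the 21498 gene symbols of the deposited expression values, and all 10 were found and passed the filter on low values. RNA was sequenced from the colorectum of 9 male ICR mice, an outbred strain, which were 5 weeks old when the experiment began. The 3 Control mice had no carcinogen, no colitis agent and no antibody, and normal colorectal mucosa was taken from them. The 6 other mice received 10 mg/kg azoxymethane (AOM), a colon carcinogen, on day 1 and then drank dextran sulfate sodium (DSS), an agent that damages the colon lining, in 3 cycles, at 2% for 7 days and thereafter at 1.5% for 5 days per cycle. Every 2 days during these cycles, 3 of them were given 1.5 mg/kg of a negative control IgG antibody intravenously (AOM/DSS + IgG Ab, here the IgG mice), and 3 were given the same dose of a rabbit polyclonal antibody against S100a9 (AOM/DSS + anti-S100a9 Ab, here the anti-S100a9 mice). All samples are dated to the end of week 18. Tissue of both AOM/DSS groups is labelled colorectal adenocarcinoma, whereas the study's text speaks of colon mucosa for the anti-S100a9 samples, so the kind of tissue taken in that group is uncertain. Treatment and kind of tissue cannot be told apart in the comparisons with Control. Nor can they be told apart between the antibodies if the anti-S100a9 tissue was mucosa. All samples were whole tissue, and a lower level can come from fewer cells of a type or from less RNA per cell, which cannot be told apart in such samples.

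The acute-phase response is the change in secreted proteins that follows injury or infection. The liver is its main source, but epithelial cells make several of the same proteins locally. Interleukin-6 family cytokines act through STAT3, and interleukin-1 and tumor necrosis factor act through NF-kB and C/EBP factors, to raise transcription of the serum amyloid A, haptoglobin and C3 genes. Interleukin-22 acts on colon epithelium through STAT3 and is known to raise Reg3b and Reg3g, which encode lectins that bind bacterial surfaces. Lipocalin-2 withholds iron from bacteria by binding their siderophores, and it is widely used as a fecal marker of colitis. Haptoglobin binds free hemoglobin. The Pigr protein carries dimeric IgA made by plasma cells across the epithelium into the lumen, and Reg4 is known from epithelial secretory cells of the colon.

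Values had the form of FPKM, a fragment count scaled to transcript length and library size, and summed to between 308377 and 408811 per sample. The number of fragments behind them is unknown, so the precision of each comparison comes from the spread between mice, 3 per group. Even Gapdh, Ppia and Rps18, abundant in most cells, had maxima of only 0.755, 0.974 and 0.391 FPKM, and therefore a value of 0 is given here as listed at 0. Epithelium was well represented in each sample: 10 keratin, adhesion and identity genes summed to between 6121 and 8194 FPKM in Control, 4649 and 7493 in IgG mice, and 5205 and 6807 in anti-S100a9 mice. Of these 10, Krt18 rose by 1.19 on the log2 scale in IgG mice vs Control (adjusted p = 0.026) and fell by 1.42 with the antibody (adjusted p = 0.013), while Krt20 differed by -0.90 and 1.08 (adjusted p = 0.14 and 0.062). S100a9, the antibody target, was at 0.371, 0.859 and 0.575 FPKM in Control, 63.1, 173 and 267 FPKM in IgG mice, and 10.3, 11.6 and 5.54 FPKM in anti-S100a9 mice. Smooth muscle markers, 6 genes, summed to 1801 to 2857 FPKM in Control, 518 to 3251 in IgG mice and 2246 to 4074 in anti-S100a9 mice.

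In the Control colon, the 10 genes fell into 4 at a high level and 6 near the lower end of the range. Saa1 was highest with a mean of 2227 FPKM (SD 977, n = 3), which placed it between the 10th and the 21st gene of all genes in the 3 mice. Pigr followed at 906 FPKM (SD 127), then Reg4 at 464 FPKM (SD 19.1) and C3 at 58.8 FPKM (SD 26.9). The ranges of these 4 did not overlap. Hp, Lcn2, Saa3 and Reg3g had means of 2.20, 1.67, 1.50 and 1.32 FPKM, and the 2 lowest were Saa2 at 0.327 and Reg3b at 0.191 FPKM. Each of these 6 overlapped with its neighbor in the order. In IgG mice the ranges of neighbors overlapped along the whole order from Saa1 at 705 FPKM to Hp at 52.3 FPKM, and Saa2 at 0.577 FPKM stood apart from the others. The anti-S100a9 mice again had Saa1, Pigr, Reg4 and C3 at the top, with means of 1363, 687, 371 and 92.2 FPKM, and the ranges of Saa1, Pigr, Reg4 and C3 were apart from one another. Below them came Reg3b at 30.5, Reg3g at 18.5, Lcn2 at 3.67, Saa3 at 1.97, Hp at 1.08 and Saa2 at 0.674 FPKM, with no overlap between Reg3g and Lcn2 or between Saa3 and Hp.

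**Figure D1:**
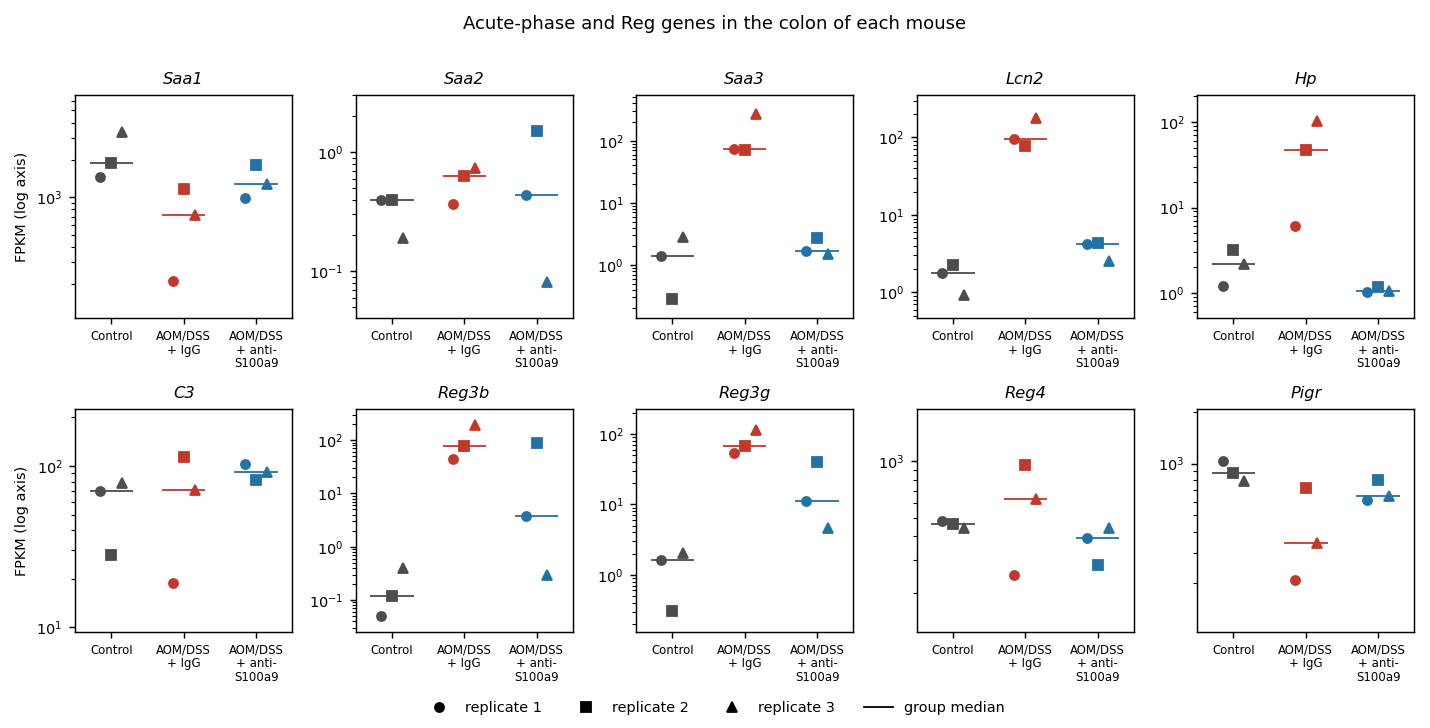
FPKM of the 10 acute-phase and Reg genes in each of the 9 mice, on log axes that differ between panels; symbols mark the replicate number and lines the group median. Saa3, Lcn2, Hp, Reg3b and Reg3g are higher in all 3 IgG mice than in any Control mouse, and Saa1 and Pigr are lower in all 3.

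Promoter sequences are shown for the near-identical Saa1 and Saa2, which differed widely in level, and for Saa3, Lcn2, Reg3b and Reg3g, which rose together in the comparison that follows. The set of RefSeq promoters used (GRCm38.p6) held 9 of the 10 genes, all but Hp. The 250 bases before the RefSeq start, which can differ from the GENCODE start given later, are printed 5′ to 3′ on the gene's strand. Capitals mark matches, on either strand, to the STAT motif TTCNNNGAA, the C/EBP motif TTGCNNAA or the NF-kB motif, and no matches overlapped.
Saa1, chr7:46742981-46743230, minus strand: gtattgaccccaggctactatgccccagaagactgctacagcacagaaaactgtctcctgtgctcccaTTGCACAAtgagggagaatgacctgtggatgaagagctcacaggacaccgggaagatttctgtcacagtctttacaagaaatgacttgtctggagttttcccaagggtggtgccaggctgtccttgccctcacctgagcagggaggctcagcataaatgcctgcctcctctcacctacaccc
Saa2, chr7:46751583-46751832, plus strand: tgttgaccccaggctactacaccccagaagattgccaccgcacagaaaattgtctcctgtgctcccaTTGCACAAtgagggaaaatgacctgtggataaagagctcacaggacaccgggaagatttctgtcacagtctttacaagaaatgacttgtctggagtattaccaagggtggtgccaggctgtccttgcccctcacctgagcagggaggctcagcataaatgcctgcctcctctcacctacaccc
Saa3, chr7:46715677-46715926, minus strand: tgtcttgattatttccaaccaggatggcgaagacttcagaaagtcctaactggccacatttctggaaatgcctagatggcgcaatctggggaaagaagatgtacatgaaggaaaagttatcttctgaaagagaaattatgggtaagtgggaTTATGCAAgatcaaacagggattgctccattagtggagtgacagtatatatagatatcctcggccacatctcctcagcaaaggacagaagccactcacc
Lcn2, chr2:32387740-32387989, minus strand: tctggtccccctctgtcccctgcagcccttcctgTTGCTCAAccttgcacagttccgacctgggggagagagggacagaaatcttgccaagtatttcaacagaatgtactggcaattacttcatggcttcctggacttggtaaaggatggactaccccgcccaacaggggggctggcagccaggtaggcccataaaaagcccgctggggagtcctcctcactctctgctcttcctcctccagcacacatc
Reg3b, chr6:78370635-78370884, plus strand: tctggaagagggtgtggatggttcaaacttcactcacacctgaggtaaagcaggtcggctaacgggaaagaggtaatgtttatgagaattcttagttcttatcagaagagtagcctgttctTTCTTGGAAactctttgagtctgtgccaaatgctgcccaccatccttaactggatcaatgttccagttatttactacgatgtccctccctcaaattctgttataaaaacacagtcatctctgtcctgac
Reg3g, chr6:78468875-78469124, minus strand: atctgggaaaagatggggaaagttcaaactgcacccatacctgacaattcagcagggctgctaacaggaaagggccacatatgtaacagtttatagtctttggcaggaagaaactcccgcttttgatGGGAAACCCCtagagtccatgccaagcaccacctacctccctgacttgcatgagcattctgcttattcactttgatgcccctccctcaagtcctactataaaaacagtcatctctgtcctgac

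The Saa1 and Saa2 promoters share 95.2% of their bases, the C/EBP match included, although the listed levels of the genes were 2227 and 0.327 FPKM in Control. The Reg3b and Reg3g promoters share 68.7%. A C/EBP match was found in 5 of the 9 promoters, those of Saa1, Saa2, Saa3, Lcn2 and C3, against 9.56% of 32851 promoters of the same length in the table. Of these 5 genes, Saa3 and Lcn2 were among those higher in IgG mice. A STAT match was found in Reg3b alone (7.02% of all promoters) and an NF-kB match in Reg3g alone (3.90%). The Reg4 and Pigr promoters had no match to the 3 motifs. Such matches are a description of letters and not of binding.

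The first comparison, IgG mice vs Control, asked what differed in the inflamed and tumor-bearing colon. Of the 10 genes, 5 rose and none fell at an adjusted p under 0.05, against 8.18% of all 15278 genes tested that were higher, 3.01% that were lower and 11.2% in either direction. The risen genes were Reg3b, Saa3, Lcn2, Reg3g and Hp, 3 acute-phase genes and the pair of Reg3 lectins, whereas all of the 4 genes with high Control levels, Saa1, Pigr, Reg4 and C3, did not pass the test. The median log2 fold change was 2.27 over the 10 genes and 0.09 over all genes tested. Division by median-of-ratios size factors moved the median of all genes to -0.01 and left 5 genes risen. Among all genes, the calls split into 1250 higher and 460 lower as deposited, and into 947 and 631 after quantile normalization.

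Saa1, by far the most abundant serum amyloid A transcript in these samples, was at 1451, 1907 and 3324 FPKM in Control and at 214, 1173 and 728 FPKM in IgG mice. The groups did not overlap, and replicate 1 of the IgG mice was the lowest of the 9 mice. The log2 fold change was -1.88 (SE 0.61, 95% limits -3.27 to -0.50), with an adjusted p of 0.080 by limma that missed the threshold. The adjusted p became 0.034 without IgG replicate 2 and 0.041 with levels set relative to the epithelium markers, and the log2 fold change was -1.18 (adjusted p = 0.15) without IgG replicate 1.

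Saa3, a serum amyloid A gene known from macrophages, adipocytes and inflamed epithelium, rose. It was at 1.39, 0.278 and 2.83 FPKM in Control and at 75.0, 70.4 and 272 FPKM in IgG mice, with every IgG mouse far above the highest Control mouse. The rise was 95.7-fold (log2 fold change 6.58, SE 0.75, adjusted p = 0.0018). Saa2 stayed low, at 0.397, 0.393 and 0.190 FPKM in Control and 0.368, 0.631 and 0.734 FPKM in IgG mice. Its groups overlapped, and the log2 fold change of 0.67 (95% limits -0.90 to 2.23, adjusted p = 0.55) did not pass the test.

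The serum amyloid A genes lie in a cluster on chromosome 7 (GRCm38, GENCODE M21): Saa3 at chr7:46711998-46715700 and Saa1 at chr7:46740497-46742980 on the minus strand, and Saa2 at chr7:46751790-46754313 on the plus strand. Saa4, which reached 0.0671 FPKM and was below the filter, lies between Saa3 and Saa1 (chr7:46727998-46732603, minus strand). Saa1 and Saa2 are near-identical copies. Their first coding transcripts in GENCODE, of 609 and 606 bases, share 93.9% of aligned bases, and 13.2% of the 50-base windows of Saa1 occur unchanged in Saa2. Saa1 and Saa3 share 66.4%. Reads from Saa1 and Saa2 could therefore have been split between them by the counting, and the level given to each is uncertain. With both summed to 1 row, the log2 fold change was -1.88 with an adjusted p of 0.080, the values of Saa1 alone.

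Lcn2 (chr2:32384633-32388252, minus strand), the siderophore-binding lipocalin, was at 1.78, 2.29 and 0.934 FPKM in Control and at 95.6, 77.7 and 176 FPKM in IgG mice. This 65.6-fold rise (log2 fold change 6.04, SE 0.39) had the smallest adjusted p of the 10 genes, 0.00025. Hp (chr8:109575128-109579172, minus strand), which encodes the hemoglobin-binding protein, was at 1.20, 3.21 and 2.17 FPKM in Control and at 6.16, 46.8 and 104 FPKM in IgG mice. The 3 IgG mice differed widely, from 6.16 to 104, but all lay above Control (log2 fold change 3.87, SE 0.86, adjusted p = 0.025). The Hp call was the least firm of the 5: the adjusted p was 0.085, 0.060 and 0.053 without Control replicate 1, 2 or 3, 0.055 without IgG replicate 3, and 0.080 in a fit of these 2 groups alone. C3 (chr17:57203970-57228136, minus strand), the central component of complement, was at 69.5, 28.1 and 78.6 FPKM in Control and at 18.7, 113 and 70.8 FPKM in IgG mice. Its groups overlapped at both ends and the difference was -0.01 on the log2 scale (95% limits -1.42 to 1.39, adjusted p = 0.99). Without IgG replicate 1, in which C3 was lowest, the value was 0.74 (adjusted p = 0.34).

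Among the Reg lectins, Reg3b had the largest fold change of the 10 genes. It was at 0.0505, 0.120 and 0.402 FPKM in Control and at 45.0, 77.4 and 193 FPKM in IgG mice, with no overlap (log2 fold change 8.43, SE 1.62, adjusted p = 0.014). The adjusted p was 0.053 without Control replicate 1 and 0.055 without Control replicate 2. Reg3g was at 1.61, 0.310 and 2.04 FPKM in Control and at 53.0, 67.6 and 114 FPKM in IgG mice, a 64.8-fold rise (log2 fold change 6.02, SE 0.82, adjusted p = 0.0037). The order of the 3 IgG mice was the same for both Reg3 genes, with replicate 3 highest and replicate 1 lowest. Reg4 was at 482, 467 and 444 FPKM in Control and at 247, 952 and 633 FPKM in IgG mice. The Control mice lay close together inside the much wider IgG range, and the log2 fold change was 0.19 (95% limits -0.80 to 1.18, adjusted p = 0.80). It was -0.23 without IgG replicate 2.

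Reg3b (chr6:78370657-78373466, plus strand) and Reg3g (chr6:78466269-78468872, minus strand) lie in the Reg cluster of chromosome 6, whereas Reg4 is alone on chromosome 3 (chr3:98222156-98236748, plus strand). The first coding transcripts of Reg3b and Reg3g share 69.5% of aligned bases and no 50-base window. The 4 other Reg genes of the cluster were below the filter: Reg2 and Reg3d were listed at 0 in all 9 mice, Reg3a reached 0.0564 FPKM and Reg1 0.0907 FPKM, both in IgG mice.

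Pigr (chr1:130826684-130852249, plus strand), the IgA transporter, was at 1042, 884 and 790.5 FPKM in Control and at 209, 721 and 343.5 FPKM in IgG mice. The groups did not overlap, and the log2 fold change of -1.27 (SE 0.40, 95% limits -2.19 to -0.36) had an adjusted p of 0.076, which missed the threshold. It was 0.0087 without IgG replicate 2, the IgG mouse with the highest Pigr and Saa1, and 0.16 without replicate 1, the lowest. The groups did not overlap for 7 of the 10 genes, 5 higher and 2 lower, against 20.7% and 10.2% of all genes tested. The same 7 passed the thresholds that the study used, an unadjusted p under 0.05 and over 2-fold change, which 8.43% of all genes passed as higher and 5.19% as lower.

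**Figure D2:**
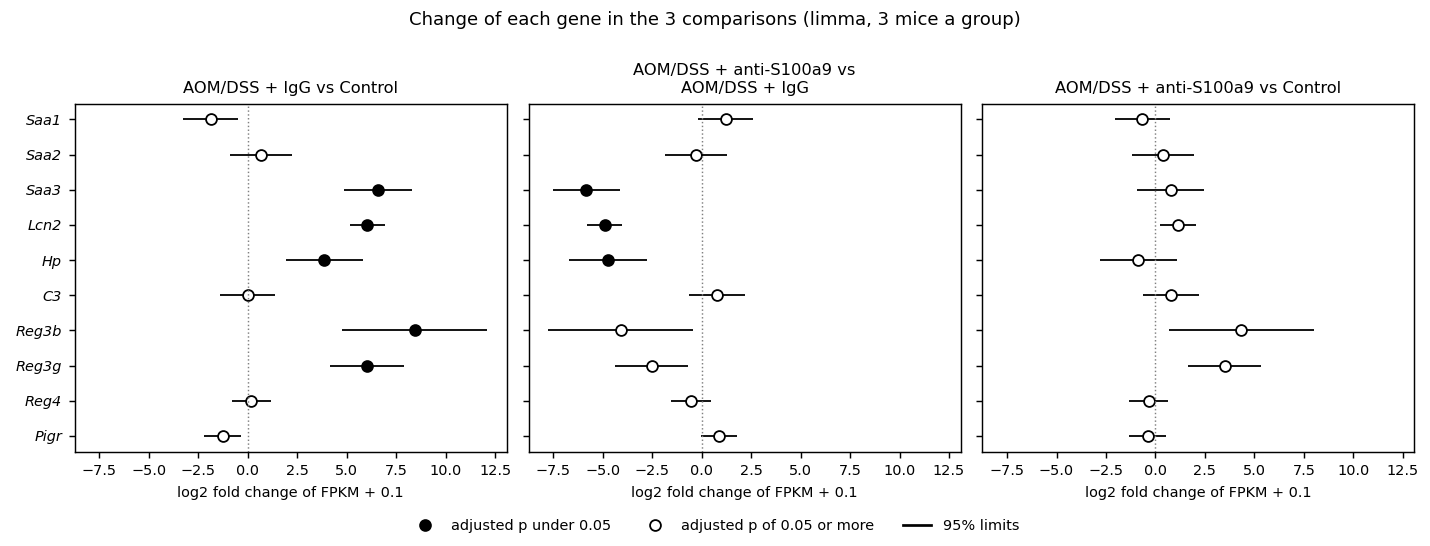
Log2 fold change of FPKM + 0.1 (x axis) of each gene in the 3 comparisons, with 95% limits from limma over all 9 mice; filled points passed an adjusted p of 0.05. In IgG mice vs Control 5 genes are filled on the right, between the antibodies 3 are filled on the left, and in anti-S100a9 mice vs Control none is filled.

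The second comparison, anti-S100a9 vs IgG mice, asked what differed with the antibody, where the kind of tissue may have differed as well. Saa3, Lcn2 and Hp fell and no gene rose at an adjusted p under 0.05 (3 of 10 genes lower, against 14.4% of all genes tested that were lower, 6.72% that were higher and 21.1% in either direction). All 3 are acute-phase genes that had risen in IgG mice, a group that both comparisons share. The Reg3 lectins were lower on average without passing the test, and Saa1 and Pigr had higher means without passing it. The median log2 fold change was -1.53 over the 10 genes and -0.06 over all genes tested. The calls among all genes split into 1026 higher and 2193 lower as deposited, into 1389 and 1706 after quantile normalization, and into 620 and 705 with levels set relative to the epithelium markers. Each of these scalings left 3 of the 10 genes fallen. The groups did not overlap for 4 of the 10 genes, Saa3, Lcn2, Hp and Reg3g, all lower in anti-S100a9 mice, against 28.5% of all genes that were lower and 18.5% that were higher without overlap. By the study's thresholds 5 were lower, these 4 and Reg3b, against 8.38% of all genes that were lower and 7.64% that were higher.

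With the antibody Saa3 was at 1.66, 2.75 and 1.48 FPKM, within the Control range of 0.278 to 2.83 and below every IgG mouse (log2 fold change -5.82, SE 0.75, adjusted p = 0.0044). Lcn2 was at 4.18, 4.30 and 2.53 FPKM, which also lay far below the lowest IgG mouse (log2 fold change -4.90, SE 0.39, adjusted p = 0.00098). Hp was at 1.01, 1.18 and 1.04 FPKM, the narrowest spread of any gene and group here on the log2 scale apart from Reg4 in Control. Its log2 fold change was -4.73 (SE 0.86, adjusted p = 0.012). The Saa3, Lcn2 and Hp calls held in each of the alternatives, with adjusted p-values of up to 0.024, 0.0099 and 0.049.

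The Reg3 lectins differed between the 3 anti-S100a9 mice. Reg3b was at 3.85, 87.4 and 0.293 FPKM: replicate 2 lay within the IgG range of 45.0 to 193, and replicate 3 within the Control range. The log2 fold change was -4.09 (SE 1.62, 95% limits -7.75 to -0.43, adjusted p = 0.098), and -6.14 (adjusted p = 0.030) without anti-S100a9 replicate 2. Over the 9 mice left out in turn it ranged from -6.14 to -2.24, with an adjusted p of up to 0.24, and only that 1 omission passed. Reg3g was at 11.3, 39.6 and 4.60 FPKM, with the same mouse highest and the same mouse lowest. All 3 values lay below the IgG range and above the Control range. The Reg3g difference of -2.53 (SE 0.82) had an adjusted p of 0.057, which was 0.036 with a pseudocount of 1 and 0.044 without Control replicate 2. With 1 mouse left out the difference ranged from -3.34 to -1.8 and the adjusted p reached 0.16. Reg4 was at 392.5, 282 and 440 FPKM, overlapping the IgG range (log2 fold change -0.54, SE 0.44, adjusted p = 0.38). Without IgG replicate 1, the mouse with the lowest Reg4, it was -1.09 with an adjusted p of 0.040. Leaving out other mice gave values up to -0.12 and adjusted p-values up to 0.85, and none of these passed.

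Saa1 was at 993, 1813 and 1282 FPKM with the antibody, overlapping the IgG range through its highest mouse (log2 fold change 1.22, SE 0.61, adjusted p = 0.17). The value was 0.52 without IgG replicate 1. Pigr was at 613, 806 and 643 FPKM, again overlapping through IgG replicate 2 (log2 fold change 0.87, SE 0.40, adjusted p = 0.14), and the adjusted p was 0.019 without that mouse. No other omission passed for Pigr, and with 1 mouse left out its value ranged from 0.45 to 1.35, with an adjusted p of up to 0.34. C3 was at 103, 81.7 and 92.1 FPKM, inside the range of the IgG mice (log2 fold change 0.79, 95% limits -0.62 to 2.19, adjusted p = 0.36). The C3 value was 0.04 (adjusted p = 0.96) without IgG replicate 1 and 1.33 (adjusted p = 0.13) without IgG replicate 2. Saa2 was at 0.434, 1.51 and 0.0811 FPKM and its groups overlapped (log2 fold change -0.29, adjusted p = 0.78).

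In the third comparison, anti-S100a9 mice vs Control, none of the 10 genes passed an adjusted p of 0.05 by limma, against 0.0131% of all genes tested, which is 2 genes. At an unadjusted p under 0.05, without adjustment, 2439 of all genes passed. By the study's thresholds Reg3b, Reg3g and Lcn2 were higher, 3 of 10 against 2.28% of all genes, and none was lower, against 0.864%. Their log2 fold changes were 4.33 for Reg3b (SE 1.62), 3.49 for Reg3g (SE 0.82) and 1.14 for Lcn2 (SE 0.39), each with an adjusted p of 0.30. The Reg3b value was 2.29 without anti-S100a9 replicate 2 and 6.19 without replicate 3, and the Reg3g value was 2.68 and 4.21 without these mice. Reg3g and Lcn2 did not overlap with Control, and Reg3b did through anti-S100a9 replicate 3. C3 was the other gene higher without overlap, with a log2 fold change of 0.77 (adjusted p = 0.53), which made 3 of 10 against 17.3% of all genes. Hp and Reg4 were lower without overlap, 2 of 10 against 13.7%. Saa3 lay within the Control range at both ends (log2 fold change 0.76, 95% limits -0.95 to 2.47). For Hp the log2 fold change was -0.86 (95% limits -2.82 to 1.10, adjusted p = 0.62), and for Reg4 it was -0.35 (95% limits -1.34 to 0.64, adjusted p = 0.70). For Saa1 and Pigr the values were -0.67 (95% limits -2.05 to 0.72) and -0.40 (95% limits -1.32 to 0.52).

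A pair of mice stood at the edge of their group for most of the 10 genes. IgG replicate 1 had the lowest value of its group for 8 genes, all but Saa3 and Lcn2. Anti-S100a9 replicate 2 had the highest value of its group for 8, all but C3 and Reg4. Without IgG replicate 1, 5 genes rose vs Control and 4 fell with the antibody, where 888 and 1157 of all 15129 genes tested did. Without anti-S100a9 replicate 2, 4 genes fell with the antibody, namely Saa3, Lcn2, Hp and Reg3b, where 428 of all 15223 genes tested fell.

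Ratios of 2 genes within a mouse do not depend on how a library was scaled, and were compared on the log2 scale with two-sided exact permutation tests, in which 3 mice against 3 cannot go below p = 0.1. The Saa3 to Saa1 ratio was -9.93, -12.30 and -10.15 in Control, -1.51, -4.06 and -1.42 in IgG mice, and -9.14, -9.31 and -9.66 in anti-S100a9 mice. All 3 IgG mice thus lay apart from the 6 others, with a mean difference of 8.47 from Control (exact p = 0.1, 0.2 after adjustment over 18 ratio tests). The Saa1 share of the summed FPKM of the 10 genes was 47.6% to 71.6% in Control, 22.2% to 35.5% in IgG mice, and 46.8% to 58.1% in anti-S100a9 mice.

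The Reg4 to Reg3g ratio had its lowest mean in the IgG mice. It was 8.13, 10.16 and 7.70 in Control, 2.22, 3.82 and 2.48 in IgG mice, and 5.10, 2.83 and 6.55 in anti-S100a9 mice, where replicate 2 lay among the IgG mice (IgG mice vs Control -5.82, exact p = 0.1). The Saa3 to Lcn2 ratio was near 0 in IgG mice, at -0.35, -0.14 and 0.63, so both genes had about the same FPKM there. Relative to the mean of the 10 epithelium markers in the same mouse, the differences between IgG mice and Control were 6.78 for Saa3, 6.24 for Lcn2, 4.07 for Hp, 8.63 for Reg3b and 6.22 for Reg3g, each with an exact p of 0.1, the smallest possible, and 0.18 after adjustment over 30 tests.

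Genes of the cytokines, receptors and transcription factors known to act on acute-phase genes were examined next. Of 30 such genes tested, 14 rose and none fell in IgG mice vs Control, against 8.18% and 3.01% of all genes tested, and the median log2 fold change was 0.66. Socs3, a STAT3 target that restrains the pathway, was at 9.99, 8.57 and 10.3 FPKM in Control, 65.3, 38.0 and 45.8 FPKM in IgG mice and 11.6, 11.6 and 18.3 FPKM in anti-S100a9 mice. It rose by 2.32 on the log2 scale (adjusted p = 0.0012) and fell by 1.84 with the antibody (adjusted p = 0.0045). Stat3 itself rose by 0.72 (adjusted p = 0.0096). The interleukin-6 family cytokine Il11 rose most, by 4.57 (adjusted p = 0.0033). Il6 was at most 0.0451 FPKM in Control, at 0.110, 0.573 and 0.293 FPKM in IgG mice and at most 0.0553 FPKM in anti-S100a9 mice. It passed the filter only through the IgG mice, so its call among the 14 (1.54, adjusted p = 0.049) was favored by its level there and carries little weight. Il1a, Tnf and Il1b rose by 2.84, 2.59 and 2.13 (adjusted p = 0.014, 0.036 and 0.015).

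Il22, the cytokine known to raise the Reg3 lectins, was below the filter. It was listed at 0 in the 3 Control mice, at 0.0415, 0.103 and 0.0412 FPKM in IgG mice, and at 0, 0 and 0.0722 FPKM in anti-S100a9 mice. Anti-S100a9 replicate 3, the mouse at 0.0722, had the lowest Reg3b and Reg3g of its group. Values this low rest on few fragments, and the part of Il22 in the Reg3 levels was not tested. Il22ra1, which encodes a chain of its receptor, was at 14.1, 15.3 and 4.98 FPKM in Control and 3.81, 9.04 and 5.06 FPKM in IgG mice, with overlap (log2 fold change -0.86, adjusted p = 0.23). It was higher with the antibody, at 16.3, 19.9 and 16.8 FPKM, and rose by 1.64 over IgG mice (adjusted p = 0.033). Il17a was at 2.59, 0.588 and 0 FPKM in IgG mice and differed by 2.14 from Control without passing the test (adjusted p = 0.19). Nfkbiz, the NF-kB cofactor needed for Lcn2 induction, had a difference of 0.13 (adjusted p = 0.83). With the antibody, 8 of the 30 genes fell and 1, Il22ra1, rose, against 14.4% and 6.72% of all genes tested. Il6, which passed the filter only through the IgG mice, was among the 8.

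Of 21 other acute-phase genes listed, 12 passed the filter and 5 of these rose in IgG mice, against 8.18% of all genes: Lrg1 by 2.94 (adjusted p = 0.015), Lbp by 2.75 (adjusted p = 0.0057), Steap4 by 2.38 (adjusted p = 0.0069), Cp by 2.05 (adjusted p = 0.011) and Il1rn by 0.77 (adjusted p = 0.028). Lrg1, a leucine-rich glycoprotein, reached 27.7, 108 and 123 FPKM, against 5.58, 8.96 and 15.8 FPKM in Control. Lbp encodes the binding protein for bacterial lipopolysaccharide and Cp encodes ceruloplasmin. The fibrinogen genes Fga and Fgb and the pentraxin Apcs, known from the liver, were listed at 0 in all 9 mice. Of 8 hepatocyte markers, 4 passed the filter and only Alb of these 4 rose, from 0.922, 2.27 and 1.49 FPKM in Control to 11.9, 5.39 and 4.75 FPKM (log2 fold change 2.12, adjusted p = 0.015). Alb fell by 2.36 with the antibody (adjusted p = 0.011). The hepatocyte markers summed to 17.2 to 30.9 FPKM in Control, 22.5 to 38.2 in IgG mice and 18.2 to 31.2 in anti-S100a9 mice, of which Ttr made up 15.9 of 17.2 FPKM in Control replicate 1. Ttr had a log2 difference of -0.33 in IgG mice vs Control (adjusted p = 0.64). Without Ttr the sums were 1.31 to 2.51, 5.07 to 12.5 and 1.34 to 2.03 FPKM. With the antibody 3 of the 12 fell, against 14.4% of all genes, namely Lrg1, Lbp and Il1rn by 2.61, 1.71 and 0.88 (adjusted p = 0.019, 0.025 and 0.015).

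Complement genes other than C3 mostly missed the test, with 1 higher and 1 lower of 25 tested against 8.18% and 3.01% of all genes. Cfi rose by 4.11 (adjusted p = 0.0012) and Cfd fell by 6.43 (adjusted p = 0.042) in IgG mice vs Control. Cfi encodes the protease that inactivates C3b, and its level was at most 0.191 FPKM in Control and 2.10, 2.53 and 2.90 FPKM in IgG mice. Cfd, an adipocyte product, was at 30.7, 133 and 31.5 FPKM in Control and at 0.0619, 12.4 and 0 FPKM. Cfd is itself on the list of adipocyte markers. Of the 6 others tested 5 fell, and without Cfd the listed markers summed to 68.0 to 295 FPKM in Control, 10.2 to 46.8 in IgG mice and 19.6 to 37.0 in anti-S100a9 mice. The part of adipocytes in the Cfd result was not tested. For C3ar1, the C3a receptor gene, the difference was 0.59 on the log2 scale (adjusted p = 0.31). Of the 25, only Cfi fell with the antibody, by 3.36 (adjusted p = 0.0042), against 14.4% of all genes.

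None of 12 genes of the secretory IgA pathway passed the test in IgG mice vs Control, by limma's adjusted p, against 8.18% of all genes higher and 3.01% lower. At an unadjusted p under 0.05 and over 2-fold change 3 were lower, against 5.19% of all genes. All of the 12 log2 fold changes were negative, with a median of -1.17. Jchain, which joins IgA into the dimer that Pigr carries, was at 1974, 1156 and 1114 FPKM in Control, 431, 1236 and 298 FPKM in IgG mice, and 634, 2578 and 364.5 FPKM in anti-S100a9 mice. Its log2 fold change was -1.33 (adjusted p = 0.27). Igha, the IgA heavy chain, had -1.14 (adjusted p = 0.32). Replicate 2 was highest for both genes in each AOM/DSS group, and it was also the highest mouse of each for Pigr. With the antibody 1 of the 12 rose, Tnfsf13b by 0.90 (adjusted p = 0.036), and none fell, against 6.72% and 14.4% of all genes.

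Among receptors and partners of the proteins, Mmp9, whose protein is bound and stabilized by lipocalin-2, rose by 3.45 (adjusted p = 0.00088) and Tlr2, a receptor for serum amyloid A, rose by 1.66 (adjusted p = 0.0033). These were 2 of 15 tested, a share near the 8.18% of all genes that rose. The difference for Cd163, the haptoglobin-hemoglobin receptor of macrophages, was -1.07 (adjusted p = 0.43). For Fpr2, Extl3 and Slc22a17, receptors for serum amyloid A, Reg proteins and lipocalin-2, the values were 0.90, 0.48 and -0.51 (adjusted p = 0.26, 0.083 and 0.41). Mmp9, Tlr2 and Fpr1 fell with the antibody, by 2.95, 1.15 and 2.66 (adjusted p = 0.0029, 0.014 and 0.046), and 3 of 15 is a share near the 14.4% of all genes that fell.

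Of 22 other epithelial defence genes tested, 9 rose and 1 fell in IgG mice, where 8.18% and 3.01% of all genes did. S100a8, S100a9 and Camp of this list are also on the list of neutrophil markers below, so the counts of these lists are not independent. The 4 largest changes were S100a9 by 7.73 (adjusted p = 0.00025), S100a8 by 7.37 (adjusted p = 0.0011), the chemokine Cxcl5 by 7.01 (adjusted p = 0.00028) and the chemokine Cxcl1 by 4.63 (adjusted p = 0.0012). Tgm3 fell by 2.03 (adjusted p = 0.023). Ang4, an antimicrobial protein of Paneth and goblet cells, rose by 4.47 (adjusted p = 0.028). Retnlb, a goblet cell product, was at 230, 731 and 425 FPKM in Control and 137, 2479 and 2120 FPKM in IgG mice, a difference of 1.11 (adjusted p = 0.52). With the antibody, 8 of the 22 fell, Ang4 among them by 6.23 (adjusted p = 0.0089), and none rose, against 14.4% and 6.72% of all genes.

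**Figure D3:**
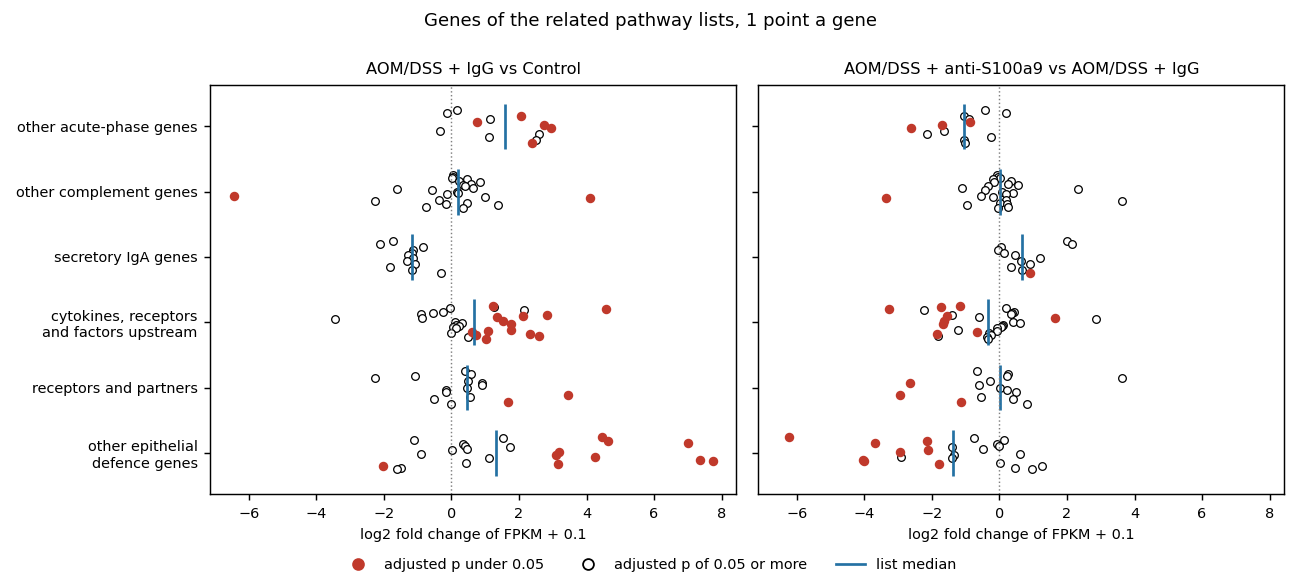
Log2 fold change of FPKM + 0.1 (x axis) of each tested gene in 6 lists of related genes, for IgG mice vs Control (left) and anti-S100a9 vs IgG mice (right); filled points passed an adjusted p of 0.05 and vertical bars are list medians. The medians were 1.59, 0.18, -1.17, 0.66, 0.47 and 1.32 from top to bottom on the left and -1.04, 0.01, 0.66, -0.33, 0.01 and -1.37 on the right.

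Several of the 10 genes are also expressed by other cells, and marker genes of such cells moved with the groups. Their counts stand beside 8.18% of all genes higher and 3.01% lower in IgG mice vs Control, and 6.72% and 14.4% in anti-S100a9 vs IgG mice. Developing neutrophils carry Lcn2 and Hp RNA. Of 9 neutrophil markers tested, 5 rose in IgG mice (S100a9, S100a8, Retnlg, Cxcr2 and Csf3r) and 4 fell with the antibody. The 10 listed neutrophil markers summed to 90.8 to 121 FPKM in Control, 134 to 691 in IgG mice and 102 to 181 in anti-S100a9 mice, with Ly6g making up 88.9 of 90.8 FPKM in Control replicate 1. Ly6g had log2 differences of the opposite sign, -0.74 in IgG mice vs Control (adjusted p = 0.33) and 0.94 with the antibody (adjusted p = 0.17). The 9 markers without Ly6g summed to 1.964 to 4.495 FPKM in Control, 108 to 596 in IgG mice and 12.3 to 31.2 in anti-S100a9 mice. The granule genes Elane and Mpo peaked at 0.314 and 0.159 FPKM. S100a8, S100a9, Hp, Reg3b and Reg3g were all lowest in replicate 1 of the IgG mice and highest in replicate 3, whereas Lcn2 was lowest in replicate 2. The part of neutrophils in the rise of Lcn2 and Hp was not tested.

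Paneth cells are antimicrobial cells of the small intestine, and of 7 marker genes tested 5 rose and 6 fell with the antibody. Ang4 and Itln1 of this list are also made by goblet cells. The 7 markers summed to 79.6 to 213 FPKM in Control, 1069 to 1860 in IgG mice and 55.2 to 110 in anti-S100a9 mice. Colonocyte markers moved the other way, with 4 of 6 lower and 1 higher in IgG mice and sums of 867 to 1261 FPKM in Control, 70.2 to 235 in IgG mice and 544 to 1603 in anti-S100a9 mice. None of 8 goblet cell markers passed limma's test in either direction (1 was lower by the study's thresholds), and their sum was 1903 FPKM in IgG replicate 1 against 10660 and 14890 in the others of that group. Squamous epithelium markers were also highest in replicate 1, at 46.5 FPKM, against 9.80 and 34.4 in the others of the group and at most 4.66 in Control, with Trp63 under 0.1 FPKM in all mice. Of 6 fibroblast markers, 4 rose, with sums of 412 to 497 FPKM in Control and 616 to 2093 in IgG mice, and none of 10 macrophage markers passed limma's test (1 was higher by the study's thresholds). Plasma cell markers summed to 3810 to 6015 FPKM in Control, 1584 to 4345 in IgG mice and 1161 to 7092 in anti-S100a9 mice. The part of these cell types in the levels of the 10 genes was not tested.

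**Figure D4:**
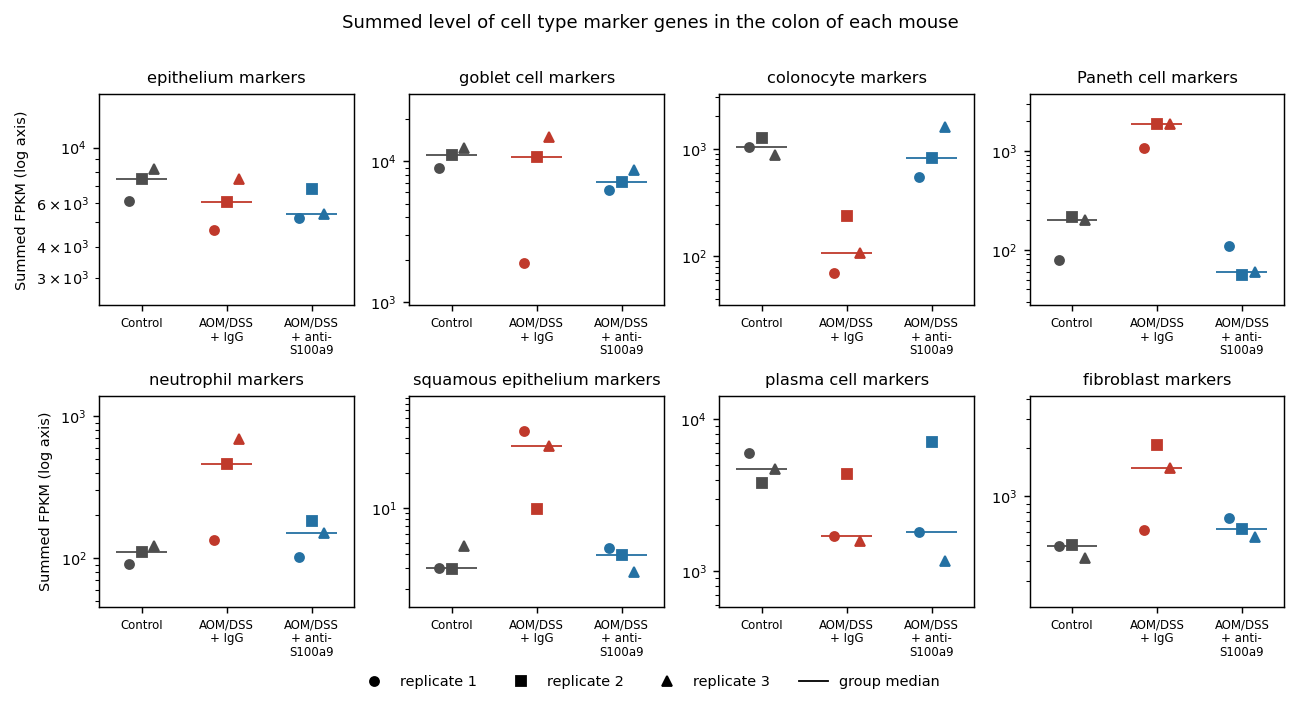
Summed FPKM (log axes, which differ between panels) of marker genes of 8 cell types in each of the 9 mice; symbols mark the replicate number and lines the group median. Paneth cell markers are at 1069 FPKM or more in the 3 IgG mice and at 213 or less in the others, and goblet cell markers are lowest in replicate 1 of the IgG mice.

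The genes whose pattern over the 9 mice was most like that of each of the 10 were found by the root mean square difference of centered log2 values, among 13064 genes with a mean of at least 1 FPKM in a group. Pigr had the smallest differences, with Adtrp, Cldn15 and Ptprh at 0.163, 0.175 and 0.176, against 0.69 for the spread of Pigr itself. The differences were not divided by a gene's own spread, so genes that vary more tend to have larger ones. Saa1 was next to Glod5, Lpo and Cyp2d34 at 0.261 to 0.290, and its nearest gene among the 10 was Pigr at 0.530. Lcn2 was nearest to Cxcl2, Atg9b and Defa5 at 0.544 to 0.611, and Saa3 to Cdkn2a and Arg1 at 0.804 and 0.817. Hp was nearest to Stfa2 at 0.527. For Reg3b the closest genes were S100a8, S100a9 and Sprr2b at 1.57 to 1.94, the largest differences of any of the 10, beside a spread of 3.96 for Reg3b itself. The spread was 2.66 for Lcn2, 0.84 for Saa2 and 0.54 for Reg4, so the order of the genes would differ relative to their spread. Reg3g was nearest to Clca4b, Cxcl5 and Scgb2b20 at 0.910 to 1.17. Reg4 was nearest to Kdelr3, Nnmt and Ffar4 at 0.254 to 0.272, C3 to Pik3r5, AB124611 and Rassf2 at 0.316 to 0.333, and Saa2 to Tgm5, Dbp and Vsig1 at 0.459 to 0.568. These likenesses are over 9 mice in 3 groups and carry no test.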

How the data were processed

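RNA-seq libraries of colorectal RNA from 9 mice (3 per group) were analyzed. For every mouse the authors deposited a table of decimal FPKM values, with 21544 rows labelled by symbol. No source used here states the unit, which was inferred from the values themselves. The submitters' processing notes name TopHat, Cufflinks, HTSeq, DESeq and GRCm38, with no versions. No counts were given, so depth is unknown and the study's DESeq test was not repeated. Values per length depend on the transcript models used, and genes at the low end carry few fragments.

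Values of 46 repeated rows in the deposited FPKM tables were added to their namesakes, giving 21498 symbols, and log2(FPKM + 0.1) was used. Genes reaching 0.1 FPKM in 3 or more samples, 15278 in all, were fitted with limma 3.58.1 in R 4.3.3 (3 groups, all 9 samples, intensity trend), with Benjamini-Hochberg adjustment over all of them. Fold changes refer to log2(FPKM + 0.1), so changes of low genes are understated. The script was tested on simulated data. Single values used two-sided exact permutation tests (scipy 1.17.1). The limma p-values weigh a group difference against a spread pooled over all 9 mice and moderated over all genes tested. The exact p-values use only the 3 mice against 3 of the groups compared. Positions are from GENCODE M21 and promoters from RefSeq.

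The 10 genes and all gene lists were chosen with earlier results of these data known. Beside the 10, genes named from a list are the up to 4 with the largest change in IgG mice vs Control among those with an adjusted p under 0.05 and a group mean reaching 1 FPKM, a fixed set of upstream cytokines, receptors and partners, S100a9, and the 3 genes most like each of the 10, of which some are not reported here for Saa3 and Hp. Other names were added after their values were seen: those in low or unmeasured lists, genes that changed with the antibody, and markers that set a sum. Igj, Cebpd, Pla2g2a and Amy2b were not found under these symbols. Alternatives covered the pseudocount, filter, scaling, replicate block, samples fitted, trend, thresholds and each sample left out. Summing Saa1 and Saa2 was added after seeing the data. Python 3.11.15 was used with numpy 2.4.6, pandas 2.3.3 and matplotlib 3.10.9.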

Additional observations from a re-analysis of the deposited data

How the results depend on the processing

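Over the alternatives of scaling, pseudocount, filter, trend and fit, 4 to 6 of the 10 genes passed in IgG mice vs Control, 3 or 4 in anti-S100a9 vs IgG mice and 0 in anti-S100a9 mice vs Control. Leaving out 1 mouse gave 3 to 7, 3 to 4 and 0, with 3 without Control replicate 1 or 2 (Hp and Reg3b lost) and 7 without IgG replicate 2 (Saa1 and Pigr gained). Of all 15126 genes tested without IgG replicate 2, 1383 were higher and 784 lower in IgG mice vs Control. With the study's thresholds, 7, 5 and 3 genes passed in the 3 comparisons. Of the genes of all lists other than the 10, 22 passed these thresholds in anti-S100a9 mice vs Control, against 0 by adjusted p. They went both ways: 6 of 7 adipocyte markers tested were lower, and of 22 other epithelial defence genes 6 were higher and 1 lower. Their share of all list genes tested is not reported here. Of all genes tested, 2.28% passed these thresholds as higher and 0.864% as lower in that comparison.

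Directions that turned belonged to differences that did not pass the test. In IgG mice vs Control, C3 was 0.19 relative to the epithelium markers and -0.56 to 0.74 with 1 mouse left out (0.18 without Control replicate 1, 0.26 without Control replicate 3), and Reg4 was -0.23 without IgG replicate 2. Saa2 in anti-S100a9 vs IgG mice was 0.00 with a pseudocount of 1 (0.03 relative to the epithelium markers) and -1.08 to 0.49 with 1 mouse left out. In anti-S100a9 mice vs Control, Saa2 was -0.41 to 1.16 and Saa3 was -0.06 to 1.41 with 1 mouse left out. Among ratios with 1 mouse left out, Saa3 to Lcn2 ranged from -0.53 to 1.54 (IgG mice vs Control) and from -1.46 to 0.62 (anti-S100a9 mice vs Control), Reg3b to Reg3g from -0.39 to 1.97 (anti-S100a9 mice vs Control) and C3 to Pigr -0.42 to 0.18 (0.12 without anti-S100a9 replicate 2, anti-S100a9 vs IgG mice). The cause was not tested beyond the mouse left out.

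The deviations of same-numbered mice from their group means had correlations of -0.187 to 0.249, against -0.267 to 0.19 for mice of different numbers. These similar ranges show no clear pairing by number but cannot exclude one, with 3 mice per group. With the replicate block, 6 genes passed in IgG mice vs Control (Saa1 added, adjusted p = 0.041) and 3 in anti-S100a9 vs IgG mice. Over all genes, fitting only the groups compared gave 502 higher and 101 lower in IgG mice vs Control, against 1250 and 460. In anti-S100a9 vs IgG mice, leaving out 1 mouse gave the fewest calls without anti-S100a9 replicate 2 (88 higher and 428 lower, against 1026 and 2193), then without anti-S100a9 replicate 1 (164 and 625) or 3 (262 and 854) and IgG replicate 3 (502 and 1013) or 1 (419 and 1157), and levels relative to the epithelium markers gave 620 and 705. In IgG mice vs Control it was 511 and 80 without Control replicate 2, 576 and 149 without Control replicate 1, 789 and 315 without IgG replicate 3, and 865 and 255 or 877 and 256 without anti-S100a9 replicate 1 or 2. Depth is unknown, which limits statements on Saa2, Il22 and other genes near 0.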
